A study of Mus musculus with 4 samples.

Results

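The 4 ADAMTS proteases Adamts1, Adamts4, Adamts5 and Adamts9 and the 4 tissue inhibitors of metalloproteases Timp1, Timp2, Timp3 and Timp4 were followed through the cells captured from brain vessels. They were taken by symbol, 8 of the 31053 genes in the count tables, and all 8 were found. The cells came from male C57BL/6 mice of 12 to 14 weeks. These had gone through 14 days of chronic social defeat (CSD) or had stayed in the home cage (HC). The HC mice had been kept for 14 days beside a CD-1 mouse, always behind a partition. Mice of low social interaction had been removed before the groups were formed. Each condition gave 2 libraries, and each library was 1 pool of 4 mice, so the spread between libraries is a spread between pools. Beads against CD31, an adhesion molecule of the endothelium, had been used to enrich the vascular cells, and the RNA had been counted as unique molecular identifiers (UMIs) with 10x Genomics 3′ chemistry.

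ADAMTS proteases are secreted enzymes that cut proteoglycans and other matrix proteins. Adamts1, Adamts4, Adamts5 and Adamts9 belong to the branch that cleaves the lecticans aggrecan, versican, brevican and neurocan, which fill the space around brain cells and vessels. Tissue inhibitors of metalloproteases (TIMPs) bind the active site of matrix metalloproteases, and Timp3, which stays bound to the matrix, also inhibits Adamts4 and Adamts5 and blocks the VEGF receptor encoded by Kdr. Timp2 takes part in the activation of pro-Mmp2 at the cell surface, and Timp1 is known as the member that inflammation induces.

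Positions are given in GRCm38 from the GENCODE annotation. Adamts1 (ENSMUSG00000022893, chr16:85793827-85803113, minus strand) and Adamts5 (ENSMUSG00000022894, chr16:85856173-85901828, minus strand) are neighbours, 53059 bases apart with no protein-coding gene between them. Adamts4 (ENSMUSG00000006403) lies at chr1:171250421-171260637 on the plus strand, and Adamts9 (ENSMUSG00000030022) at chr6:92772699-92943492 on the minus strand. Timp2 (ENSMUSG00000017466) lies at chr11:118301069-118355740 on the minus strand. The other 3 inhibitors each sit inside a synapsin gene of the opposite strand: Timp1 (ENSMUSG00000001131, chrX:20870166-20874735, plus strand) in Syn1, Timp3 (ENSMUSG00000020044, chr10:86300372-86349506, plus strand) in Syn3, and Timp4 (ENSMUSG00000030317, chr6:115241892-115252205, minus strand) in Syn2. Whether counting used strand is not given in the sources used here. Over the 4 libraries the endothelial cells held 11560 UMIs of Timp3 against 313 of Syn3, and the astrocytes 114 of Timp4 against 32 of Syn2. For low Timp4 and Timp1 in endothelial cells the synapsin gene had more, with 53 UMIs of Timp4 against 102 of Syn2 and 3 of Timp1 against 51 of Syn1. A low inhibitor did not always go with this. Microglia held 141 UMIs of Timp3 against 4 of Syn3, and choroid plexus cells 25 of Timp1 against 15 of Syn1.

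Promoters of 300 bases, 250 before the transcript start and 50 after it, were found in the RefSeq table (GRCm38.p6) for 6 of the 8 genes, not for Adamts4 and Adamts5. Those of Adamts1, Adamts9 and Timp3 are shown because these are the genes whose endothelial levels were higher in both CSD libraries than in both HC libraries. Capitals mark each GC box (GGGCGG on either strand). They lie at chr16:85803064-85803363 (minus strand), chr6:92943485-92943784 (minus strand) and chr10:86300162-86300461 (plus strand).
Adamts1: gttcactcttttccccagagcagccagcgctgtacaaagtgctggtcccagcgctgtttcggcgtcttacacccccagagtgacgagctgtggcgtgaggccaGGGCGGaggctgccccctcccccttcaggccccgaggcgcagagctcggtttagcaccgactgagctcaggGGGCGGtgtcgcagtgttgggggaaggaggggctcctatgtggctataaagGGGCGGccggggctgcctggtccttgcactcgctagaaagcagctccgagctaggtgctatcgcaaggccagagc
Adamts9: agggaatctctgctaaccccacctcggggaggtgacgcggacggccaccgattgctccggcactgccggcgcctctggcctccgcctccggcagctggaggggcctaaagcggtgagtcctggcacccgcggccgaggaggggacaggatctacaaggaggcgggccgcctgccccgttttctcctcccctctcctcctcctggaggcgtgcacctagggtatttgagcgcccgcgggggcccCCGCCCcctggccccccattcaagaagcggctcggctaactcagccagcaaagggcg
Timp3: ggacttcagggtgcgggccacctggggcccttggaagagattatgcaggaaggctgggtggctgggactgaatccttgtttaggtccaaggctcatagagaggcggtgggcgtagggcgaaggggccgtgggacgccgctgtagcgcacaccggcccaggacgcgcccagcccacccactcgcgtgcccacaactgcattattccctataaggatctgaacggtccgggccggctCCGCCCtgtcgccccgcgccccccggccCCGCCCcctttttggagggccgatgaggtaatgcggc

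The Adamts1 window held 3 GC boxes, the Adamts9 window 1 and the Timp3 window 2. Of the other promoters, those of Timp1 and Timp2 held 1 each and that of Timp4 held 0. A GC box stood in 35.7% of all 32851 promoters of the table. The AP-1 site (TGANTCA, in 7.81% of promoters), the CRE (TGACGTCA, in 1.79%) and the CArG box of serum response factor (in 1.63%), 3 sites through which immediate-early transcription is known to run, were searched on both strands and matched none of the 6 windows. This says only that these letters are not in these windows.

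Cells were kept at 500 UMIs or more, 250 genes or more and at most 25% mitochondrial UMIs, which left 14415 cells, between 2553 and 4934 a library. The libraries held 27297599 to 30361474 UMIs, and the median cell held 1408 to 2357. CSD 2 stood apart, with 32.6% of its UMIs in kept cells against 51.8 to 56.8% in the other libraries. Pairs of libraries shared 0 to 9 barcodes. A class was given to a cell with 3 or more different markers of that class and at least 2 times as many as of any other class, and 14.9% of cells stayed without one. The endothelial cells (5127) had a median of 9 of their own markers and 0 of any other class. The other classes tested had medians of 5 to 9 of their own, and at most 1 of another class, but 3 in choroid plexus cells. Within them 2961 were called capillary EC, 487 arterial EC and 190 venous EC. Levels are CPM, the UMIs of the gene per 1000000 UMIs of the class, summed per library. Barcodes of at most 100 UMIs, which hold free RNA, gave 77.4 to 99.9 CPM of Adamts1, 222 to 246 of Timp3, 112 to 202 of Timp2 and 48.0 to 69.6 of Timp4, and under 8 of the others.

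The genes differed in the class with their highest CPM. Among the 9 classes with at least 10 cells in every library, Adamts1 was highest in arterial smooth muscle cells (SMC) and arterial EC, Timp3 in arterial and capillary EC, Adamts4 and Adamts5 in arterial SMC, Timp4 in astrocytes and arterial SMC, and Timp2 in microglia and choroid plexus cells. Adamts9 was low and was found in endothelial cells, astrocytes and arterial SMC. Timp1 was close to absent from these classes. Among the smaller classes, fibroblasts had a higher mean for Timp3 (2953 ± 1304 CPM) and Timp2 (563 ± 298), precursors of oligodendrocytes (OPC) for Timp4 (177 ± 124) and oligodendrocytes for Adamts4 (182 ± 152).

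**Figure D1:**
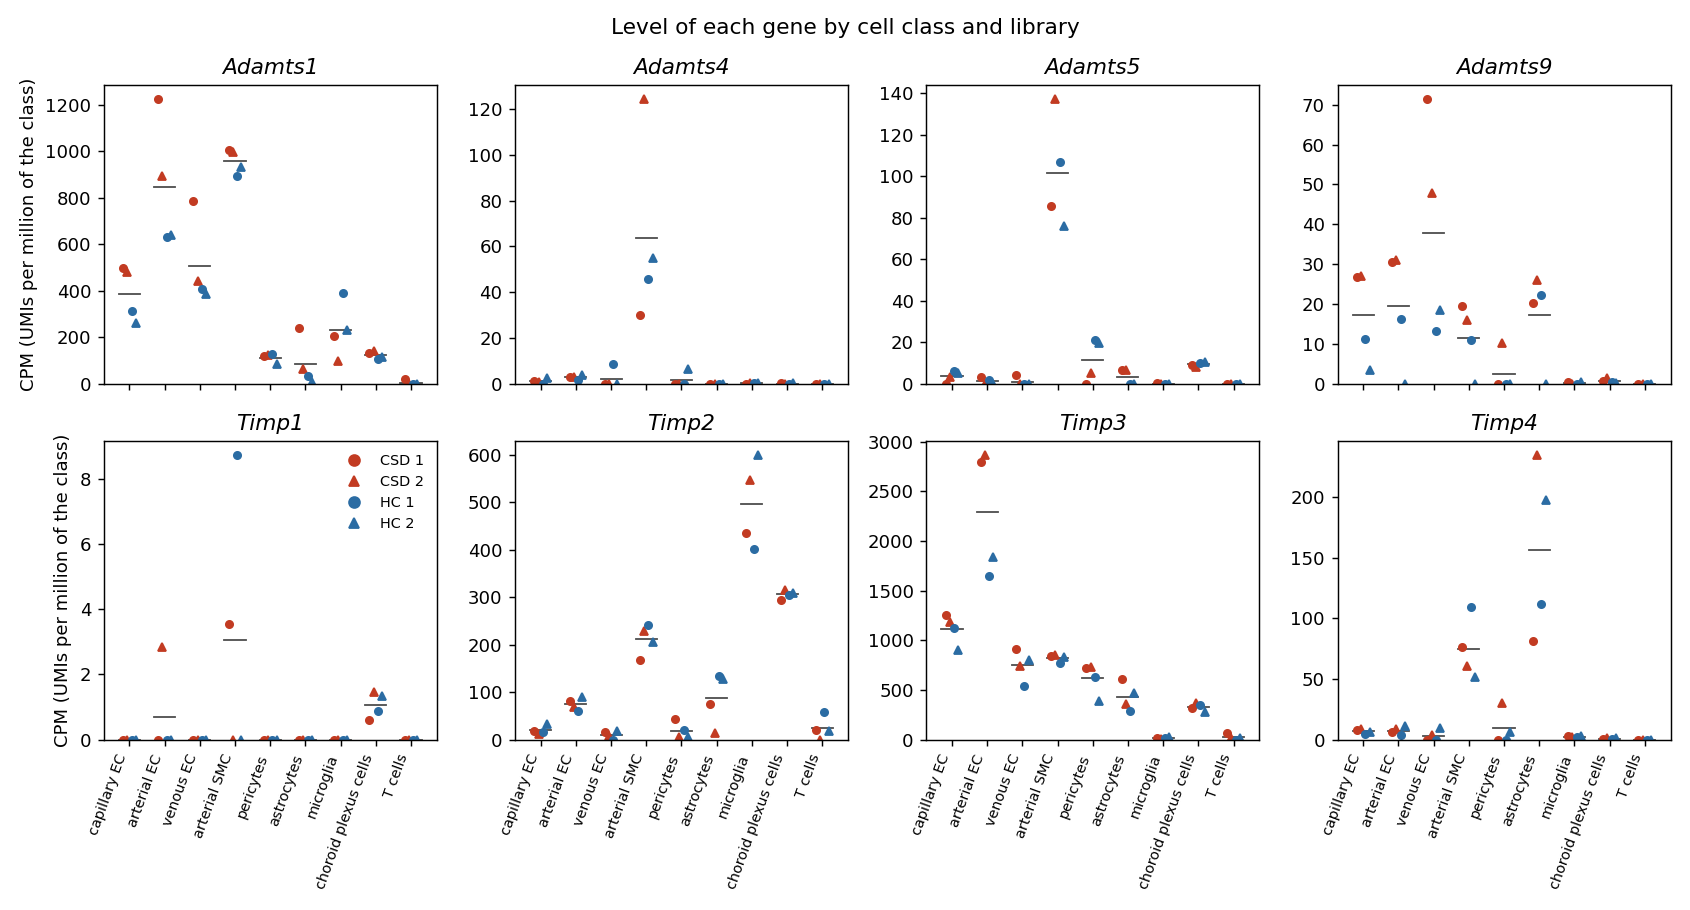
Level of the 8 genes (vertical axes, CPM on linear scales that differ between panels) in the 9 classes with at least 10 cells in every library. Points are libraries (red, CSD; blue, HC) and the bar is their mean. Adamts4 and Adamts5 stand out in arterial SMC, Timp2 in microglia and Timp3 in arterial EC.

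Adamts1, which cuts versican and restrains angiogenesis, had 956 ± 53.8 CPM (SD, n = 4 libraries, as for all levels by class) in arterial SMC, the highest mean. The 4 SMC libraries lay within 893 to 1007 CPM. SMC were above arterial EC in the HC mean (912 against 636 CPM) and not in the CSD mean (1001 against 1057). Arterial EC followed with 846 ± 279, venous EC with 506 ± 188 and capillary EC with 388 ± 119 CPM. Neighbours in this order overlapped in their library ranges all the way down to microglia (231 ± 121), choroid plexus cells (124 ± 15.8), pericytes (113 ± 18.3), astrocytes (85.8 ± 104) and T cells (5.23 ± 10.5). The last mean rested on 1 UMI, and the levels in choroid plexus cells, pericytes and astrocytes were near that of free RNA. Fibroblasts, with 8 to 30 cells a library, gave 461 ± 181 CPM.

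Adamts4, an aggrecanase, was at 30.2, 124, 45.9 and 55.2 CPM in the arterial SMC of CSD 1, CSD 2, HC 1 and HC 2. The highest library among the other classes with at least 10 cells in every library was at 8.78 CPM, in venous EC, so the SMC range stood clear. Adamts4 UMIs were also seen in all 4 libraries of oligodendrocytes, 11 in all from 21 cells (112 CPM pooled, exact Poisson 95% interval 55.8 to 199.96, counting error only).

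Adamts5, the other main aggrecanase, had 85.4, 137, 107 and 75.8 CPM in the SMC of the same libraries, with a mean of 101 ± 27.2. Among the 9 classes pericytes came next at 11.5 ± 10.6 and choroid plexus cells at 9.38 ± 0.973, and these 2 overlapped. The SMC range did not overlap that of pericytes. Fibroblasts gave 40.8 ± 31.8 CPM from 7 UMIs, and OPC 13.8 ± 11.8 from 3. Over 36 sums by class and library, log2(CPM + 10) of Adamts4 and Adamts5 had a Pearson correlation of 0.87, carried by the SMC sums in which both are high.

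Adamts9, a protease of versican that is needed in vessel and heart development, had 37.7 ± 27.1 CPM in venous EC, 19.5 ± 14.7 in arterial EC, 17.2 ± 11.7 in astrocytes and 17.1 ± 11.6 in capillary EC. These ranges overlapped. It rested on few molecules, 179 UMIs over all endothelial cells, and was at 0.737 CPM in choroid plexus cells and 0.202 in microglia.

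Timp3, the inhibitor held in the matrix, had 2289 ± 634 CPM in arterial EC, above capillary EC (1115 ± 151), which was above arterial SMC (825 ± 35.3), with no overlap of library ranges at either step. Venous EC (748 ± 160), pericytes (619 ± 159), astrocytes (433 ± 141) and choroid plexus cells (328 ± 39.0) followed with overlapping ranges. Microglia had 14.3 ± 7.91 CPM. With every cell thinned to 1000 UMIs, 51.2 to 62% of capillary EC and 0.398 to 1.6% of microglia held a Timp3 UMI, and without thinning 49.1 to 71.6% and 2.23 to 3.78%. Thinning left out 156 to 685 capillary EC a library that held fewer UMIs. Fibroblasts gave 2747, 4845, 1938 and 2281 CPM in CSD 1, CSD 2, HC 1 and HC 2, from 8 to 30 cells a library.

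Timp2 had 435, 547, 403 and 600 CPM in the microglia of CSD 1, CSD 2, HC 1 and HC 2, and its range there lay above that of choroid plexus cells (306 ± 8.67). Choroid plexus cells lay above arterial SMC (212 ± 33.0), and SMC above astrocytes (87.5 ± 56.4), again without overlap. Border-associated macrophages, the other resident macrophages of the brain, gave 393 to 549 CPM from 5 to 48 cells a library, and fibroblasts 287 to 985 CPM from 82 UMIs, a range that held that of microglia. Arterial EC (74.8 ± 13.5) stood above capillary EC (19.6 ± 9.70). All endothelial classes were below the free RNA level.

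Timp4 had 81.5, 235, 112 and 198 CPM in the astrocytes of the same libraries. In their arterial SMC it had 76.5, 60.6, 109 and 51.7 CPM, and the ranges of both classes overlapped. Free RNA of these libraries held 48.6, 69.6, 48.0 and 55.4 CPM, so that SMC lay below it in CSD 2 and HC 2. The next of the 9 classes, pericytes, reached 30.5 CPM in its highest library. Ependymal cells gave 68.7 ± 64.4 CPM from 15 UMIs. OPC had 46 UMIs in all from 62 cells (230 CPM pooled, exact Poisson 95% interval 169 to 307). Timp1 had 32 UMIs over the 36 sums, of which 25 were in choroid plexus cells at 0.603 to 1.46 CPM. In fibroblasts it had 0, 4, 2 and 1 UMIs in CSD 1, CSD 2, HC 1 and HC 2, which is 158, 47.9 and 19.2 CPM in the 3 libraries with any.

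One edgeR fit over the 9 classes, with the library as a term, tested these differences. The filter on low counts kept 5 of the 8 genes (Adamts1, Adamts5, Timp2, Timp3 and Timp4), and 27 of their 40 contrasts passed an adjusted p of 0.05. Against capillary EC, arterial SMC were higher in 4 of 5, beside 53% of all genes that differed in either direction in that contrast. Adamts5 was higher by 4.95 ± 0.34 on the log2 scale (± SE, edgeR quasi-likelihood with Benjamini-Hochberg adjustment, adjusted p = 2.49e-18), Timp4 by 3.77 ± 0.35 (1.88e-13), Timp2 by 3.70 ± 0.26 (3.83e-18) and Adamts1 by 1.57 ± 0.24 (9.45e-08). Timp3 was at -0.18 ± 0.19 (edgeR adjusted p = 0.444). Adamts5 passed the filter on low counts only through its level in arterial SMC, and Timp4 only through arterial SMC and astrocytes. Their contrasts with these classes are therefore a description and no independent support. The same holds for their places in the counts here, against pericytes and, for Timp4, in astrocytes. Against pericytes, the other mural cell, all 5 were higher in arterial SMC (31.6% of all genes differed), from 0.78 ± 0.22 for Timp3 to 4.28 ± 0.47 for Timp2.

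Within the endothelium 3 of 5 genes were higher in arterial than in capillary EC, where 16.4% of all genes differed. These were Timp2 by 1.90 ± 0.30, Adamts1 by 1.06 ± 0.23 and Timp3 by 0.97 ± 0.19 on the log2 scale (edgeR adjusted p = 2.32e-06, 0.000551 and 8.14e-05). The summed arterial SMC markers were at 815 to 1648 CPM in arterial EC and at 90.9 to 187 in capillary EC, and their part in these differences was not tested. In venous EC Timp3 was lower than in capillary EC by 0.68 ± 0.20 (adjusted p = 0.0317), the only one of 5 to pass, beside 4.58% of all genes, and Adamts1 was at 0.29 ± 0.25 (0.594). The Timp3 call was lost without CSD 1 (-0.74, adjusted p = 0.0945) and without HC 1 (-0.54, 0.246), and with RLE size factors (0.074), cells of 1000 UMIs or more (0.0919) and no library term (0.160). Pericytes were lower than capillary EC in Adamts1 (-1.83 ± 0.35) and Timp3 (-0.96 ± 0.21), 2 of 5 beside 34.2% of all genes.

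Microglia were higher than capillary EC in Timp2 by 5.06 ± 0.24 and lower in Timp3 (-5.92 ± 0.25) and Adamts5 (-3.80 ± 0.82), 3 of 5 beside 66.1% of all genes. The Adamts5 difference rests on 1 UMI in microglia and 15 in capillary EC, whose 3.74 CPM lay within the free RNA range (1.71 to 7.80). Adamts1 was at -0.34 ± 0.23 (edgeR adjusted p = 0.202), and at -0.80 (0.00381) without HC 1, and Timp4 was at -0.98 ± 0.48 (0.0688), and at -1.23 (0.047) without HC 2. Choroid plexus cells differed in all 5, beside 76.6% of all genes, with Timp2 (4.88 ± 0.24) and Adamts5 (2.22 ± 0.37) higher and Timp4, Timp3 and Adamts1 lower. Astrocytes differed in 4 of 5, beside 47.5% of all genes, with Timp4 (4.66 ± 0.37) and Timp2 (1.94 ± 0.42) higher and Adamts1 (-1.99 ± 0.35) and Timp3 (-1.25 ± 0.22) lower. These shares of members stood near or above those of all genes, with Timp4 in the astrocyte share a description only. The classes themselves had been set by other genes.

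**Figure D2:**
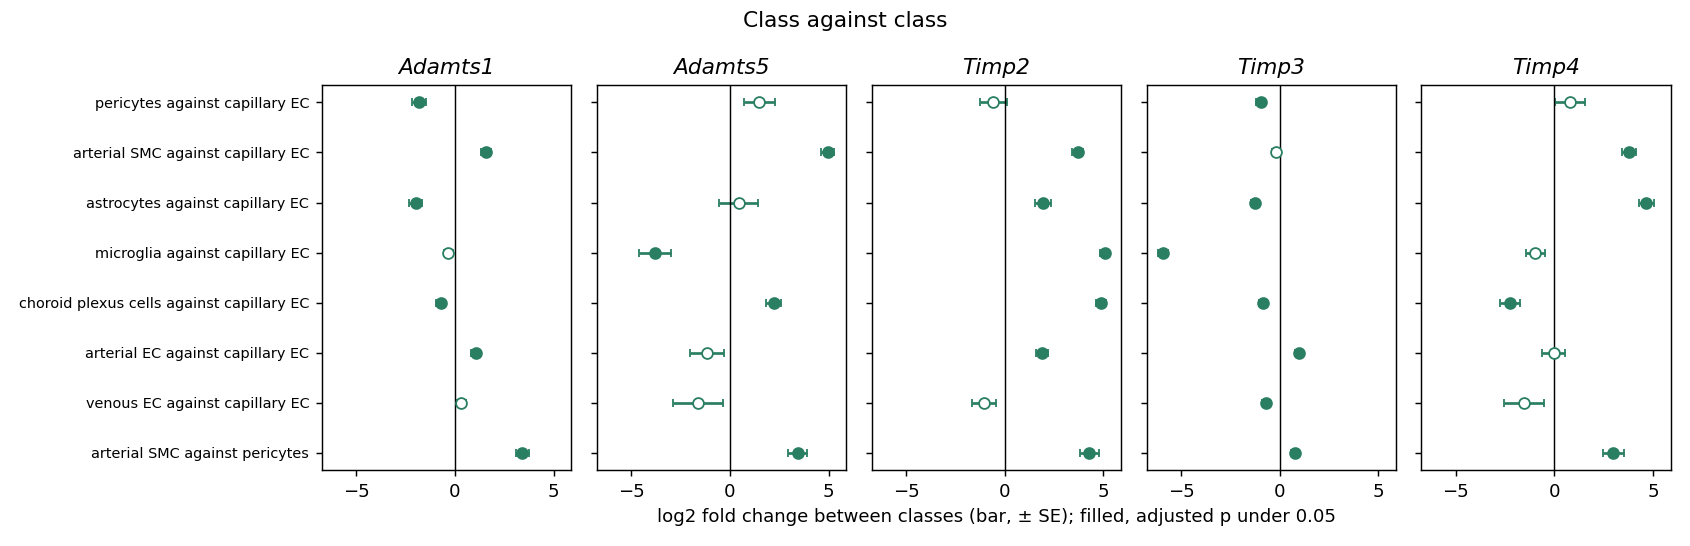
Differences between classes for the 5 genes that passed the filter on low counts (horizontal axis, log2 fold change with its SE as a bar). Filled points passed an adjusted p of 0.05. Timp2 is higher in microglia and choroid plexus cells by about the same amount, 5.06 and 4.88, and Timp3 is lower in microglia by 5.92.

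Between CSD and HC, Adamts1, Adamts9 and Timp3 were at higher levels in the endothelial cells of both CSD libraries, and no difference passed the adjusted threshold. CSD was compared with HC in each class, on counts normalised with TMM factors. The filter left 34 pairs of a gene and a class in 9 classes, and no T cell pair. None of the 34 passed in edgeR. At an unadjusted p under 0.05 there were 13, and DESeq2 called 2 of them, Adamts1 in all endothelial cells and in capillary EC. Of all genes such a p was found for 787 of 10355 in endothelial cells, 701 of 8621 in capillary EC and 424 of 6310 in arterial EC. It was found for 283 of 3995 in venous EC, 132 of 2341 in pericytes and 38 of 1959 in astrocytes. In microglia there were 120 of 9753, in choroid plexus cells 367 of 11283 and in arterial SMC 132 of 4761. DESeq2 called 53 of 10355 genes in endothelial cells and 28 of 8621 in capillary EC. The main edgeR fits called few genes of any kind: 0.0579% in endothelial cells, 0.174% in capillary EC, 0.285% in arterial EC and 0.451% in venous EC. The share was 0.0427% in pericytes, 0.102% in astrocytes, 0.124% in choroid plexus cells and 0% in arterial SMC and in microglia. Both CSD libraries lay above both HC libraries in 16 of the 34 pairs and below in 3. Over all genes of the 9 classes these shares were 15.6% above and 16.1% below. Adamts9 in the endothelial classes and Timp2 in astrocytes passed the filter only through the group in which they were higher. In the counts here and below these pairs are therefore no independent support.

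**Figure D3:**
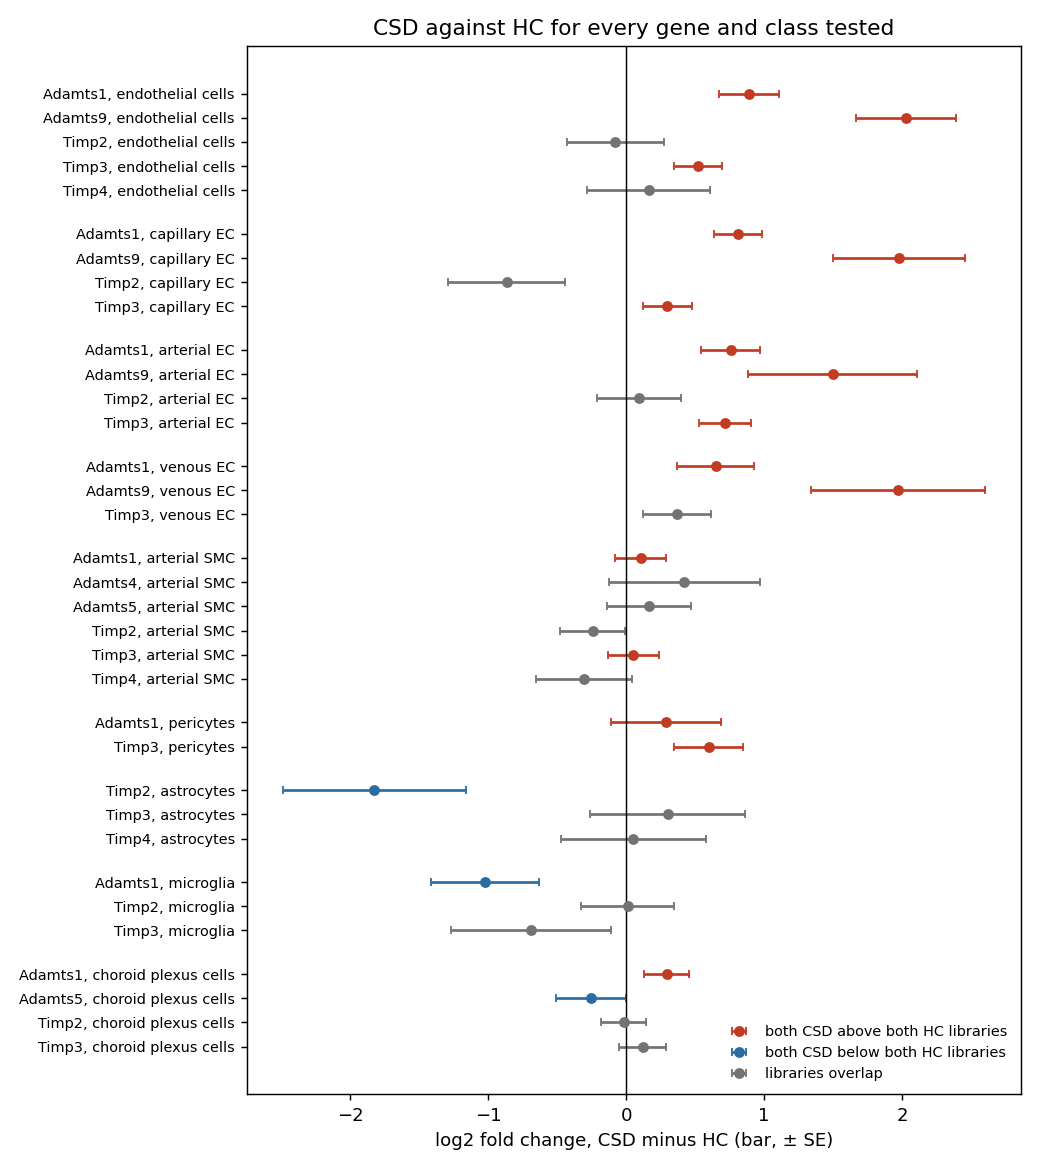
CSD minus HC for the 34 pairs tested (horizontal axis, log2 fold change with its SE as a bar), grouped by class. Colour tells whether the CSD libraries lay above (16), below (3) or among (15) the HC libraries. No pair passed an adjusted p of 0.05.

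Most of the higher pairs lay in the endothelial classes, which share cells. Outside them both CSD libraries were higher in 2 of 2 pairs in pericytes, 2 of 6 in arterial SMC and 1 of 4 in choroid plexus cells. Beside these stood 17.2%, 15.6% and 13.9% of all genes. Pairs that the filter removed lay on either side. Adamts1 in astrocytes had CSD and HC means of 150 and 21.7 CPM, and Adamts5 in capillary EC 1.68 and 5.80. Adamts1, Adamts9 and Timp3 were above HC in both CSD libraries in 3 of 5 pairs in all endothelial cells, 3 of 4 in capillary EC, 3 of 4 in arterial EC and, without Timp3, 2 of 3 in venous EC. Beside this stood 18.1% of all genes in endothelial cells, 18.1% in capillary EC, 17.4% in arterial EC and 18.3% in venous EC. Timp2 in capillary EC lay the other way, at 18.3, 11.1, 16.6 and 33.5 TMM-normalised CPM in CSD 1, CSD 2, HC 1 and HC 2 (-0.87 ± 0.42, edgeR adjusted p = 0.624), with overlap between the groups. Timp2 (-0.08 ± 0.35) and Timp4 (0.16 ± 0.44) in all endothelial cells and Timp2 in arterial EC (0.09 ± 0.30) overlapped too. The 3 endothelial subtypes are part of the endothelial cells and come from the same libraries, so they do not repeat each other independently.

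In capillary EC, Adamts1 stood at 521 and 488 TMM-normalised CPM in CSD 1 and CSD 2 and at 316 and 261 in HC 1 and HC 2. Both CSD libraries were higher, and the difference was 0.81 ± 0.17 on the log2 scale (edgeR adjusted p = 0.0941). In arterial EC the values were 1305, 940, 663 and 670 in the same order, a difference of 0.76 ± 0.21 (adjusted p = 0.156). The HC libraries agreed closely there and CSD 1 was the highest. The 8 arterial SMC markers summed to 1648, 957, 815 and 866 CPM in the same arterial EC, also higher in both CSD libraries and highest in CSD 1, and their part in the result was not tested. In venous EC they were 893, 498, 455 and 425 (0.65 ± 0.28, adjusted p = 0.593). Over all endothelial cells they were 804, 547, 409 and 321, a difference of 0.89 ± 0.22 (edgeR adjusted p = 0.268). The mix of subtypes differed between libraries. Of 765, 761, 650 and 678 endothelial cells with at least 1000 UMIs, 155, 69, 117 and 93 were arterial EC in the same order. The part of this mix in the values over all endothelial cells, here and for Timp3 below, was not tested. Without CSD 2, whose UMIs lay mostly outside kept cells, the difference in all endothelial cells was 1.16. Without CSD 1 it was 0.60 in all endothelial cells, 0.79 in capillary EC, 0.49 in arterial EC and 0.18 in venous EC. Without HC 1 it was 1.09 in all endothelial cells, and without HC 2 0.73. Such fits leave 1 library in a group, so only the sizes are given.

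At 1000 UMIs a cell, 25.5, 22.95, 15.9 and 18.9% of capillary EC held an Adamts1 UMI in CSD 1, CSD 2, HC 1 and HC 2, and 28.9, 28.6, 19.2 and 15.7% did without thinning. In arterial EC the thinned shares were 55.5, 42.0, 33.3 and 37.6%. T cells, which should lack Adamts1, held it in 1 of 24 cells of CSD 1 and in 0 of 17 to 31 cells in each of the other libraries, at a median depth that thinning made equal. In capillary and arterial EC the shares in both CSD libraries were above those in both HC libraries. In venous EC the thinned shares were 34.1, 14.5, 14.9 and 30.8%, so that the groups overlapped and CSD 2 was the lowest.

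**Figure D4:**
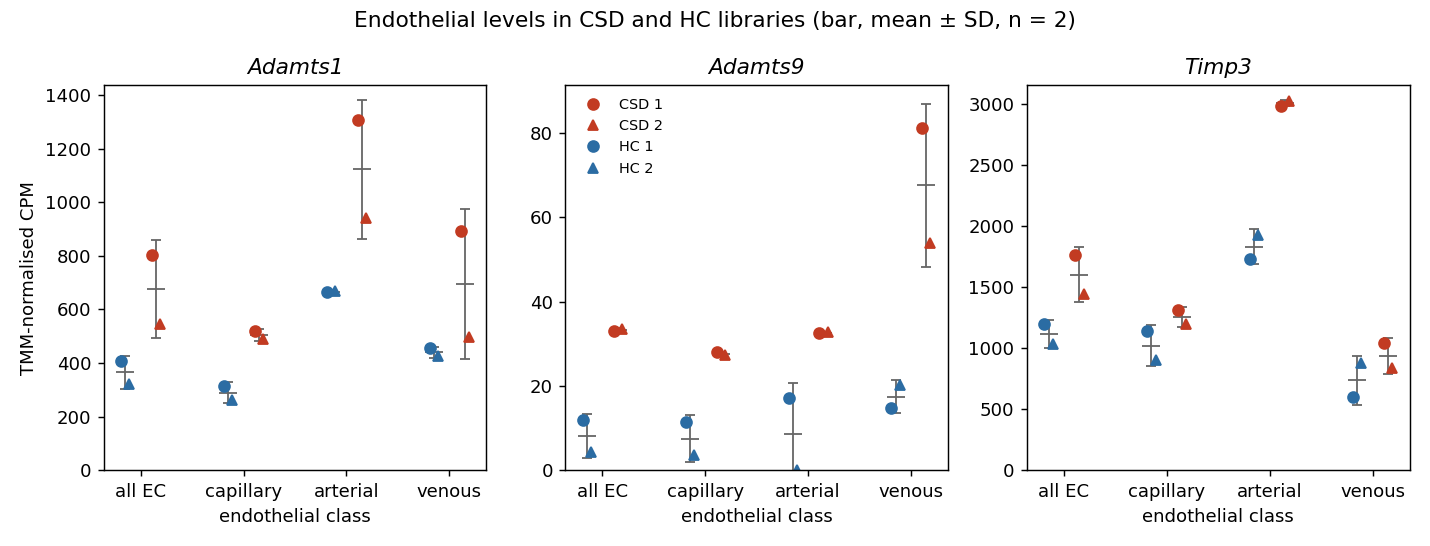
Adamts1, Adamts9 and Timp3 in endothelial classes (vertical axes, TMM-normalised CPM from 0, scales differ). Points are libraries (red, CSD; blue, HC) and bars the mean and SD of 2 libraries. CSD points lie above HC points in every group but Timp3 in venous EC.

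Timp3 in arterial EC stood at 2985 and 3022 TMM-normalised CPM in CSD and at 1729 and 1930 in HC. The CSD libraries lay above both HC libraries, with a difference of 0.72 ± 0.19 (edgeR adjusted p = 0.117). In CSD 2 a single cell held 196 of the 1013 UMIs (19.3%), against 2.94 to 7.62% in the other libraries. With 1 library left out the result depended on which one it was, and such a fit leaves a group with 1 library. In capillary EC the values were 1313, 1196, 1137 and 903 (0.30 ± 0.18, adjusted p = 0.708), and the HC libraries differed from each other by as much as the group means did. Over all endothelial cells they were 1760, 1444, 1196 and 1037 (0.52 ± 0.17, adjusted p = 0.499), and without CSD 2 the difference was 0.68. In venous EC (1041, 833, 597 and 880) the groups overlapped.

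Adamts9 gave the largest ratios in the endothelium, from few molecules. Over all endothelial cells it had 71, 75, 24 and 9 UMIs in CSD 1, CSD 2, HC 1 and HC 2, or 33.0, 33.6, 11.9 and 4.38 TMM-normalised CPM. Both CSD libraries were higher, with a difference of 2.03 ± 0.36 on the log2 scale (edgeR adjusted p = 0.117). The single cell richest in Adamts9 held 5.33 to 25% of a library's UMIs there. It held 8 of the 17 UMIs in venous EC of CSD 1 and 6 of the 9 in arterial EC of HC 1. Capillary EC had 28.0, 27.3, 11.5 and 3.52 (1.98 ± 0.48, adjusted p = 0.151) and venous EC 81.2, 53.9, 14.7 and 20.2 (1.97 ± 0.63, adjusted p = 0.25). In arterial EC they were 32.5, 32.8, 17.2 and 0, and HC 2 had no UMI. Without HC 2, the library with the fewest Adamts9 UMIs, the difference in all endothelial cells was 1.49. Adamts9 passed the filter on low counts in these classes only through its CSD libraries, where it was higher. Its p-values and its places in the counts of pairs are therefore a description and no independent support.

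The immediate-early genes, which dissociation of tissue is known to induce, were measured beside these. Their median difference between CSD and HC on the log2 scale was 0.57 over the 21 tested in endothelial cells, against -0.0079 over all genes, and 0.53 in capillary EC (20 tested), 0.47 in arterial EC (20) and 0.32 in venous EC (20). Outside the endothelium it was 0.67 in astrocytes (18), 0.19 in choroid plexus cells (19), 0.087 in pericytes (18) and -0.038 in arterial SMC (19). None of these genes was called in edgeR. At an unadjusted p under 0.05 there were 15 of 21 in all endothelial cells, 13 of 20 in capillary EC and 10 of 20 in arterial EC. There were 4 of 20 in venous EC and 0 of 20 in microglia. Over all genes these counts were 787 of 10355, 701 of 8621, 424 of 6310, 283 of 3995 and 120 of 9753 in the same order. DESeq2 was not run for the lists. Their summed level in endothelial cells was 23377, 27760, 17497 and 19412 CPM in CSD 1, CSD 2, HC 1 and HC 2, higher in both CSD libraries. They were so in capillary EC too (18626, 24445, 14405 and 16731). The groups overlapped in arterial EC (28236, 37757, 21465 and 28858) and in venous EC (31459, 32279, 21608 and 33982), where HC 2 was the highest.

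Endothelial cells of at least 1000 UMIs were therefore divided at the median share of their UMIs from these genes (1.46%), a division made after the levels had been seen. The upper part held 55.4 and 58.1% of the cells in CSD 1 and CSD 2 and 33.2 and 50.9% in HC 1 and HC 2. In the lower part Adamts1 was at 263 and 167 CPM in CSD and 94.4 and 113 in HC, so that the groups did not overlap. In the upper part it was at 1086 and 727 in CSD and 805 and 603 in HC, so that they did. In every library the upper part held the higher level. Adamts9 was higher in CSD in both parts (18.6 and 28.9 against 6.22 and 2.10 CPM in the lower, 40.7 and 33.7 against 20.3 and 5.38 in the upper). Timp3 overlapped in the lower part (1345 and 977 against 1004 and 872) and not in the upper (2015 and 1577 against 1470 and 1409). The division took all endothelial subtypes together. The summed immediate-early level was 21465 to 37757 CPM in arterial EC and 14405 to 24445 in capillary EC. Mean Adamts1 (846 against 388 CPM) and Timp3 (2289 against 1115) were also higher in arterial EC. The part of the subtype mix in the levels of the lower and upper parts was not tested. What share of the differences between CSD and HC goes with the immediate-early genes was not tested either.

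**Figure D5:**
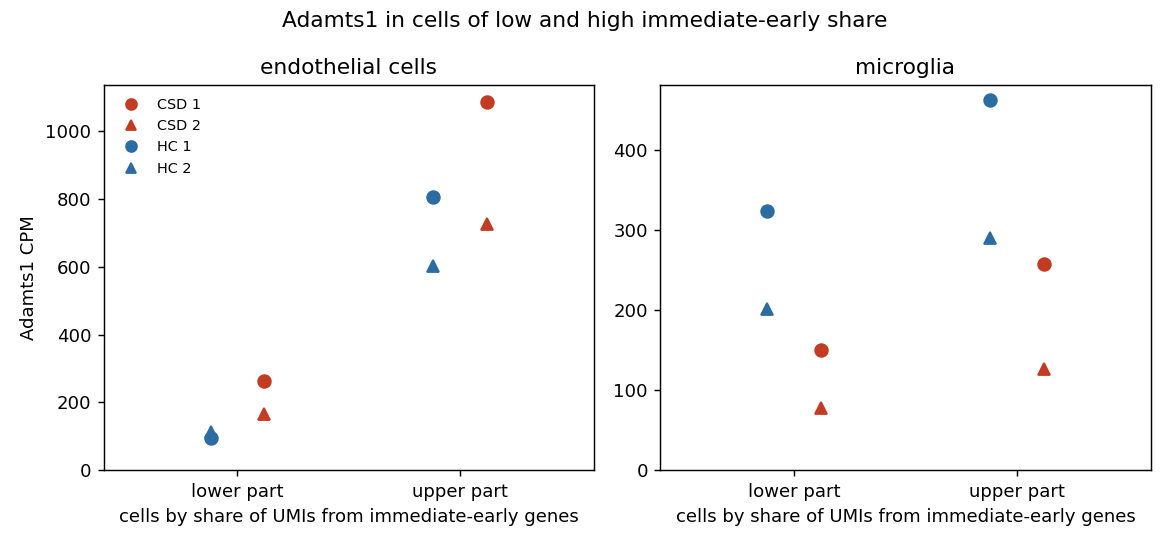
Adamts1 (vertical axes, CPM from 0, scales differ) in endothelial cells and microglia of at least 1000 UMIs, divided at the median share of UMIs from immediate-early genes of that class. Points are libraries. In endothelial cells CSD lies above HC in the lower part and overlaps in the upper part, and in microglia CSD lies below HC in the lower part and in the upper part.

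In microglia Adamts1 was lower in both CSD libraries, without passing the test. The values were 197 and 105 TMM-normalised CPM in CSD 1 and CSD 2 and 375 and 238 in HC 1 and HC 2, a difference of -1.02 ± 0.39 on the log2 scale (edgeR adjusted p = 0.9999). Both CSD libraries were below both HC libraries, as were 11.9% of all genes in microglia. The libraries of each group differed by nearly as much as the groups. Before TMM factors CSD 2 was at 97.3 CPM, near the 80.5 CPM of its free RNA. At 1000 UMIs 13.2, 3.98, 18.9 and 13.3% of microglia held an Adamts1 UMI in CSD 1, CSD 2, HC 1 and HC 2. The lower HC share and the higher CSD share were close. The 12 endothelial markers summed to 86.4, 59.0, 69.6 and 131 CPM in these microglia, against 23011 to 28379 in endothelial cells. The immediate-early median in microglia was 0.07, and dividing the cells at their median share (3.20%) left Adamts1 lower in CSD in the lower part (150 and 77.7 against 324 and 202 CPM) and in the upper part (257 and 127 against 462 and 291).

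The difference between the CSD effects in endothelial cells and microglia was tested as an interaction. For Adamts1 it was 1.95 ± 0.37 on the log2 scale (edgeR adjusted p = 0.418), and for Timp3 1.33 ± 0.57 (adjusted p = 1). None of the members passed, and 0% of all genes did. Unadjusted, the edgeR p was 9.74e-05 for Adamts1 and 0.0339 for Timp3. It was 0.329 for Adamts9, 0.726 for Timp4 and 0.835 for Timp2. How many of all 11385 genes had such a p was not counted, so these values are not read as a result about the members. DESeq2 was not run for the interaction.

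No pair passed in the remaining classes either. In arterial SMC the 6 pairs tested lay between -0.30 ± 0.35 (Timp4) and 0.42 ± 0.55 (Adamts4), all with an adjusted p of 0.998. Adamts4 there was at 32.0, 131, 49.8 and 59.2 TMM-normalised CPM, so that HC lay between the CSD libraries, and Adamts5 at 90.5, 145, 116 and 81.4 also overlapped. Adamts1 in SMC (1067 and 1052 against 971 and 999) differed by 0.11 ± 0.18. In pericytes Timp3 was at 939 and 934 against 758 and 496 (0.60 ± 0.25, adjusted p = 0.829). Adamts1 there was at 153 and 156 against 152 and 109 (0.29 ± 0.40), and its groups overlapped before TMM factors were applied. Timp2 in astrocytes was at 98.5 and 16.9 in CSD against 182 and 168 in HC (-1.83 ± 0.67, adjusted p = 0.99996), from 40 UMIs in all, and its mean level there was under that of free RNA. Timp3 (0.30 ± 0.56) and Timp4 (0.05 ± 0.53) in astrocytes overlapped. Timp3 in microglia overlapped as well (-0.69 ± 0.58). Timp2 in microglia was at 421, 588, 387 and 615 (0.01 ± 0.34) and in choroid plexus cells at 288, 323, 302 and 315 (-0.02 ± 0.16). In choroid plexus cells Adamts1 (131 and 145 against 107 and 116, 0.29 ± 0.17), Timp3 (0.12 ± 0.17) and Adamts5 (8.67 and 8.45 against 9.90 and 10.6, -0.25 ± 0.25) did not pass either.

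The other genes of these families and of their targets were taken as whole lists, chosen like the members with earlier results of these data known. Of 21 other ADAMTS and ADAMTS-like genes 3 were tested in endothelial cells and 4 in arterial SMC, of 19 matrix metalloproteases 2 and 1, of 9 ADAM proteases 4 and 5, of 6 partners of TIMPs 5 and 3, and of 13 ADAMTS substrates 7 and 5. None of their 126 pairs of a gene and a class was called in edgeR, and 10 had an unadjusted p under 0.05. The counts of all genes at that p are given by class above. Their median differences in endothelial cells were -0.14, -0.91, 0.09, 0.11 and 0.18 in the same order, and the second rests on 2 genes. The members' own median there was 0.52 over 5 genes (Timp2 -0.08, Timp4 0.16, Timp3 0.52, Adamts1 0.89 and Adamts9 2.03). Adamts9 passed the filter only through its CSD libraries, so this median is a description and no independent support.

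Among the other ADAMTS genes, Adamtsl1, a protein of the family without a protease domain, had 121 ± 5.48 CPM and Adamts8 58.4 ± 11.7 CPM in arterial SMC, and Adamts10, which binds fibrillin microfibrils, 74.7 ± 15.2 CPM in capillary EC. The metalloproteases were low, with Mmp15 at 91.4 ± 27.7 and Mmp14, the activator of pro-Mmp2, at 45.7 ± 18.2 CPM in pericytes and Mmp17 at 28.1 ± 9.50 in arterial SMC. Adam10, the main alpha-secretase, had 182 ± 33.4 CPM in venous EC, Adam15 155 ± 30.1 in arterial EC and Adam17, the enzyme that sheds TNF, 76.3 ± 10.1 in microglia. Of the substrates, fibronectin (Fn1) had 1137 ± 242 CPM in venous EC, brevican (Bcan) 834 ± 365 in astrocytes and biglycan (Bgn) 496 ± 129 in pericytes. Of the partners, Cd63, a receptor of Timp1, had 1169 ± 26.5 CPM in choroid plexus cells, integrin beta 1 (Itgb1) 890 ± 108 in arterial SMC and Kdr, the VEGF receptor that Timp3 blocks, 407 ± 71.7 in capillary EC. Kdr was at -0.22 ± 0.19 in capillary EC and -0.62 ± 0.26 in venous EC (CSD minus HC, log2), and neither passed.

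Genes with the most like pattern were ranked by the Pearson correlation of log2(CPM + 10) over the same 36 sums, among 6472 genes of at least 50 CPM in the mean of some class. The sums share libraries and the classes differ in depth, so the values are a description. Timp3 was most like Crip2 (0.97), Cyr61 (0.94) and Mast4 (0.94), and Adamts1 was most like Ets2 (0.85), Pkig (0.84) and Tns1 (0.84). Adamts5 was most like Ryr2 (0.92), Pdgfc (0.92) and Pln (0.91), the last a marker used to set the SMC class, and Adamts4 was most like Hspb7 (0.96), Gm37800 (0.96) and Alx1 (0.95). Timp4 was most like Mical2 (0.93), Rhobtb3 (0.91) and Dkk3 (0.91). Genes like Timp2 included Sowahc (0.83) and Usp2 (0.82). Adamts9 was most like Zhx3 (0.81), Ccdc85a (0.75) and Usp53 (0.75). For Timp1 the highest values (Mtus2 0.65, Cbr2 0.63, Ldb3 0.61) rest on 32 UMIs. Among the members, Adamts1 and Timp3 had a correlation of 0.66 and Adamts9 and Timp3 one of 0.57, while Timp2 and Timp3 had -0.25.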

How the data were processed

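The authors deposited unfiltered tables of UMI counts for 4 libraries, from reads aligned to GRCm38 (mm10). The submitters' notes name Cell Ranger 4.0 and the matrix headers give 3.1.0. Cells were filtered, given a class by counts of distinct markers and summed per class and library. The limits of the class gate were set after cell counts and marker detection had been seen and before CSD was compared with HC. The members and all lists were chosen with earlier results of these data known. Classes with 10 cells or more in every library were tested with edgeR 4.0.16 (filterByExpr, TMM factors, quasi-likelihood F-test, Benjamini-Hochberg over all genes of the class, threshold 0.05), without a replicate block. DESeq2 1.42.0 was an alternative. With 2 libraries a group, p-values of CSD against HC measure the spread between pools. The fits between classes and of the interaction held the library as a term. Their p-values measure the spread left after it. Counts were also simulated for capillary EC (8292 genes, 200 of them changed), with the same dispersion set for every gene. On them edgeR recovered 41.6% of 2-fold and 93.9% of 4-fold changes, and 5.59% of its calls were false. The changed genes were taken above a floor that Adamts9, at 17.1 CPM in capillary EC, did not reach. These rates therefore do not describe Adamts9 or the spread between these pools. Scrublet marked 0.0981 to 1.48% of cells, which were kept in the main analysis. In 2 libraries it marked under 0.5%, too few to say that it worked. Intervals and shares cover counting error only. Named genes were every member in every class tested, the 3 highest genes of each list in CPM, and the 3 most like genes for each member. No column was left unused. Promoter sequences came from RefSeq. Some items that these rules name are not reported here.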

Additional observations from a re-analysis of the deposited data

Results flagged for a closer look

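In several classes Adamts1 stood higher in both CSD libraries than in both HC libraries, while in microglia it stood lower in both, by 1.02 on the log2 scale (log2 fold change -1.02). The fold changes, CSD minus HC on the log2 scale, were 0.89 in endothelial cells, 0.81 in capillary EC, 0.76 in arterial EC, 0.65 in venous EC, 0.29 in pericytes, 0.11 in arterial SMC and 0.29 in choroid plexus cells. The difference between endothelial cells and microglia was tested in edgeR as an interaction (1.95 ± 0.37, adjusted p = 0.418). The difference between each other class and microglia was not tested.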

How the results depend on the processing

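For CSD against HC, 0 of 34 pairs passed, and also 0 with RLE size factors, cells of 1000 UMIs or more, at most 10% mitochondrial UMIs, a complexity of 0.8 or more, a gate of 4 markers or without cells marked by Scrublet. DESeq2 called 2, no filter on low counts 3, and the replicate block 6. With the block these included, in all endothelial cells, Adamts1 (edgeR adjusted p = 7.01e-05) and Adamts9 (1.65e-09). Calls over all genes moved too. In endothelial cells there were 6 in the main fit, 53 with DESeq2, 11 with no filter and 304 with the replicate block. In capillary EC there were 15, 28, 138 and 79 in the same order. Leaving out 1 library gave 0 to 8, with 5 without CSD 1, 8 without CSD 2, 2 without HC 1 and 0 without HC 2, and the lone library of a group was then assumed to vary like the others. In endothelial cells each fit without 1 library also called more of all genes than the main fit did. In capillary EC this held for each of them but the fit without HC 2. The member counts of these fits are therefore not read as a result about the members. DESeq2 gave no adjusted p for Adamts9 in endothelial, capillary or venous cells. Without a filter on low counts the interaction called 1 member (Adamts1, edgeR adjusted p = 0.00292), beside 19 of 18900 genes. Between classes, 27 of 40 passed in the main fit, and 26 to 34 under the alternatives, which did not all test 40. The fit without a filter also tested members that the filter removed. For the main 40 contrasts, alternatives with all libraries gave 235 results with the same call. Another 3 lost the call, 1 gained it and 1 turned sign. Over all genes, arterial SMC against capillary EC had 4271 calls of 8052 in the main fit and 5085 of 20446 without a filter. In the pairing check, same-numbered libraries had a correlation of deviations of 0.0715 in endothelial cells and 0.572 in microglia. With 2 pairs, and no source saying that numbers pair libraries, whether they share more than a number cannot be told.

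Several small differences turned sign, and the cause was not tested. For CSD against HC these were, at 10% mitochondrial UMIs, Timp2 in endothelial cells (0.040), microglia (-0.024) and choroid plexus cells (0.089), and Timp4 (0.86) and Timp3 (-0.022) in arterial SMC. With a gate of 4 markers they were Adamts1 in pericytes (-0.26) and Timp4 in astrocytes (-0.047, and -0.065 with the replicate block). At 1000 UMIs they were Timp2 in microglia (-0.0054) and arterial EC (-0.011), and at a complexity of 0.8 Timp2 in choroid plexus cells (0.020). Timp4 in arterial against capillary EC turned at 1000 UMIs (0.18).

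Leaving out 1 library gave CSD against HC a range across 0 for Timp4 in endothelial cells (-0.026 to 0.42), arterial SMC (-0.69 to 0.41) and astrocytes (-0.90 to 0.60), for Timp2 in endothelial cells (-0.70 to 0.39), microglia (-0.28 to 0.41), choroid plexus cells (-0.10 to 0.067) and arterial EC (-0.24 to 0.35), for Timp3 in astrocytes (-0.10 to 0.71) and choroid plexus cells (-0.016 to 0.28), and in arterial SMC for Adamts4 (-0.74 to 1.27) and Adamts5 (-0.17 to 0.50). Against capillary EC it did so for Timp4 (-1.12 to 1.11) and Timp2 (-1.20 to 0.072) in pericytes, Adamts5 in astrocytes (-0.29 to 0.90), Adamts1 in microglia (-0.80 to 0.030) and Timp4 in arterial EC (-0.29 to 0.091), and in the interaction for Adamts9 (-0.75 to 4.46) and Timp2 (-0.97 to 0.67).

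The limits are 2 pools a group, classes rebuilt from markers, free RNA near the levels of Adamts1, Timp2 and Timp4 in several classes, and, in Adamts9 and Timp1, few molecules. In CSD 2 most UMIs lay outside the kept cells.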
